A study of Sus scrofa with 6 samples.

Results

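Embigin, encoded by EMB, is a membrane glycoprotein of the immunoglobulin superfamily. Together with basigin (BSG, also known as CD147) it serves as the ancillary subunit of the monocarboxylate transporters, which are encoded by the SLC16A genes. These transporters move lactate, pyruvate or ketone bodies together with a proton across the plasma membrane, and they need an ancillary subunit to reach the cell surface. In enterocytes they take part in the uptake of short-chain fatty acids and in the release of lactate to the blood side.

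All probe sets of the GeneChip Porcine Genome Array whose annotated symbol was EMB, BSG or began with SLC16A were examined. This gave 5 of 23999 probe sets, or 4 of 6765 named genes, namely 2 probe sets for EMB (gene ID 100622067) and 1 each for BSG (100141312), SLC16A13 (100517000) and SLC16A3 (100158243). Of the 13 SLC16 genes considered, the other 11, SLC16A1 (MCT1) among them, were not analysed here. EMB was picked with its difference between the cultures already known, so that its values are given as a description without a test. The other members were picked by their symbol.

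The arrays held RNA of IPEC-1 cells, an epithelial line from the small intestine of newborn piglets. One group was grown as air–liquid interface culture (ALI), with a thin film of liquid on the apical side, and the other as submerged membrane culture (SMC), under a column of medium. Each group had 3 arrays, 1 each from passage P109, P111 and P113, so that the replicates are passages of 1 cell line. Both groups were kept on porous membranes with epidermal growth factor and insulin–transferrin–selenium, and the serum had been withdrawn stepwise. The labels name the jejunum as source, while a free-text field speaks of liver and was not used. Values are log2 array values, differences are ALI minus SMC in log2 units, and adjusted p-values come from limma with Benjamini-Hochberg adjustment over all 23999 probe sets. No detection calls were used. A value below the 25% quantile of its array (4.515 to 4.612) is therefore not shown to be above background.

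EMB was higher in ALI than in SMC cells on every array. The brighter of its probe sets, Ssc.12128.1.A1_at, had log2 values of 6.18, 5.77 and 6.15 in ALI cells of passages P109, P111 and P113. In SMC cells of the same passages the log2 values were 3.85, 3.67 and 3.96. The groups did not overlap, and the lowest ALI value lay 1.81 log2 units above the highest SMC value. ALI cells had a mean log2 value of 6.03 ± 0.23 (SD, n = 3 arrays). SMC cells had one of 3.83 ± 0.143 (SD, n = 3), which makes a difference of 2.20 log2 units or 4.60-fold. By size of the difference this probe set stood at place 15 of 23999 from the highest. EMB, read from it as the brighter by mean over all 6 arrays, stood at place 8 of 6765 genes. In SMC cells it was the dimmer of both, at a mean of 3.83 against 4.30, so it is the brighter only through its ALI values. The other EMB probe set stood at place 567 of 23999. Over all probe sets, 0.663% were called higher in ALI cells and 10.3% had groups that did not overlap with ALI higher. As EMB was chosen for this contrast, nothing is read from these places and shares.

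**Figure D1:**
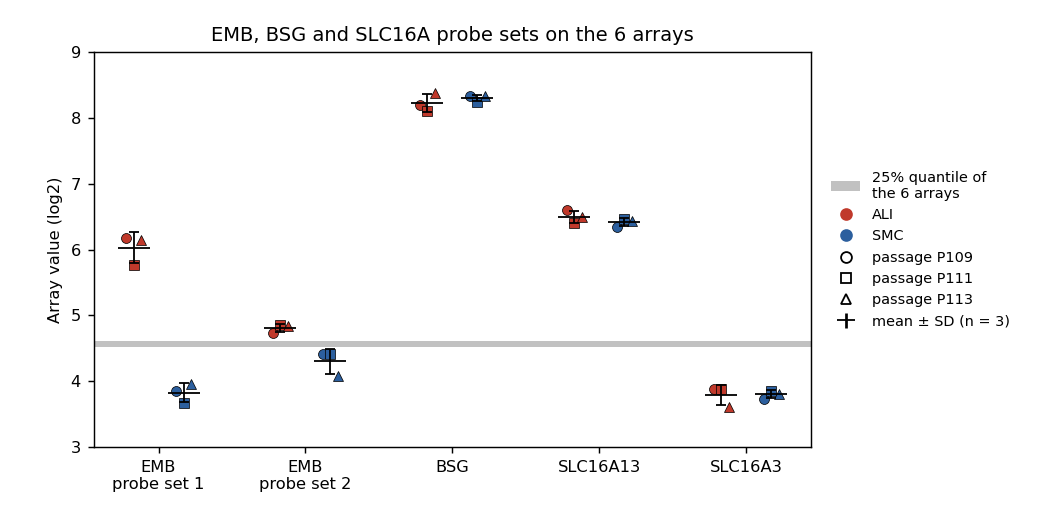
Log2 array values of the 5 probe sets of EMB, BSG, SLC16A13 and SLC16A3, with ALI arrays in red and SMC arrays in blue. Symbols mark the passage, bars the mean ± SD of 3 arrays, and the grey band the 25% quantiles of the arrays. The ALI and SMC values of EMB are separate for both probe sets, while those of the other 3 probe sets overlap.

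The low end of the EMB signal limits how exactly the difference can be given. All 3 SMC values of the brighter probe set lay below the 25% quantile of their own array, at a mean distance of -0.704 log2 units, and all 3 ALI values lay above it. The difference of 2.20 log2 units is thus no exact size. The ALI mean exceeded the mean 25% quantile of the SMC arrays by 1.50 log2 units.

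The second EMB probe set, Ssc.12128.2.S1_at, showed the same direction at a smaller size. It read 4.74, 4.85 and 4.84 in ALI cells and 4.41, 4.41 and 4.08 in SMC cells on the log2 scale, in the order of passages. The groups were again separate, with a gap of 0.327 log2 units, and the SMC values again lay below the 25% quantile on all 3 arrays. The ALI values lay above the quantile of their arrays by a mean of 0.225 log2 units only, so that this probe set reads near background in both cultures. The mean difference was 0.51 log2 units, with means of 4.81 ± 0.0602 (SD, n = 3 arrays) for ALI and 4.30 ± 0.194 (SD, n = 3) for SMC. The arrays do not tell which of these sizes is closer to the abundance of the EMB transcript.

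Within each passage the EMB difference had the same sign. For the brighter probe set it was 2.33 log2 units at passage P109, 2.09 at passage P111 and 2.19 at passage P113, with an SD of 0.120 over the 3 passages. For the second probe set it was 0.33, 0.44 and 0.76, with an SD of 0.225. The order of the passages thus differed between both probe sets. On the brighter probe set EMB was lowest at passage P111 in either culture, which was also true of BSG and of 10.5% of all probe sets. On the second probe set the ALI value at passage P111 was the highest. The deviations of both EMB probe sets from their group means had a Pearson r of -0.56 over the 6 arrays, given as a description.

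**Figure D2:**
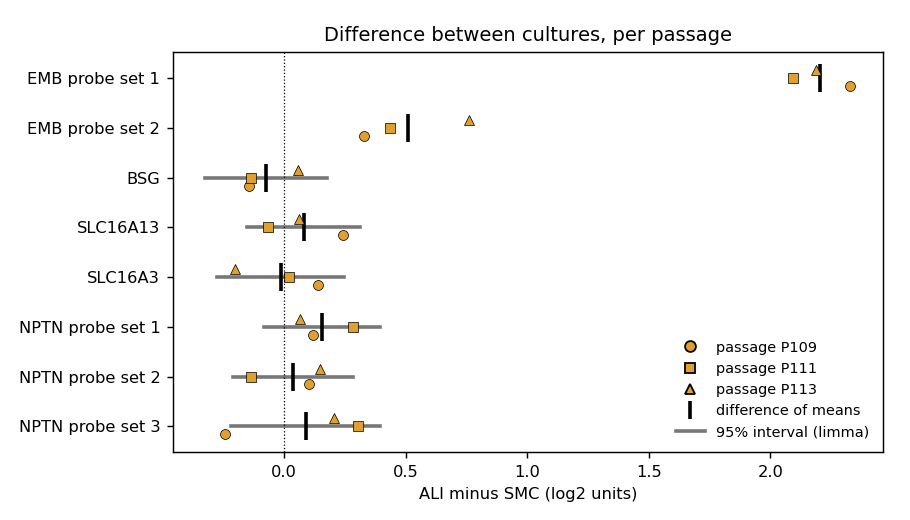
Difference ALI minus SMC in log2 units for the probe sets of EMB, BSG, SLC16A13, SLC16A3 and NPTN, ordered by signal within a gene. Symbols show the difference within each passage, the black tick the difference of the group means, and the grey line limma's 95% interval, which is left out for EMB. Within-passage differences of EMB lie between 0.33 and 2.33, whereas the intervals of all other probe sets include 0.

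BSG, the main ancillary subunit of MCT1 and MCT4 in most tissues, was not called. Its log2 values were 8.19, 8.11 and 8.38 in ALI and 8.33, 8.24 and 8.33 in SMC cells, and the groups overlapped. The highest and the lowest of these values were both ALI arrays. The means were 8.23 ± 0.141 (SD, n = 3) and 8.30 ± 0.0511 (SD, n = 3), a difference of -0.07 log2 units (standard error 0.11, adjusted p = 0.811 from limma). The 95% interval ran from -0.33 to 0.18 log2 units. Within passages the difference was -0.14, -0.13 and 0.06. BSG lay above the 25% quantile on all 6 arrays.

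Among the transporters themselves, SLC16A3 encodes MCT4, the lactate exporter of glycolytic cells. Its probe set read 3.88, 3.88 and 3.61 in ALI and 3.74, 3.86 and 3.81 in SMC cells on the log2 scale. All 6 values lay below the 25% quantile of their array, so that SLC16A3 is not shown to be above background in either culture. The difference of -0.01 log2 units (standard error 0.11, adjusted p = 0.973 from limma, 95% interval -0.27 to 0.25) therefore sets no limit on a change of the transcript.

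SLC16A13, a less studied member of the family, had log2 values of 6.59, 6.40 and 6.49 in ALI and 6.35, 6.47 and 6.43 in SMC cells. The groups overlapped, and all 6 values were above the 25% quantile. The difference was 0.08 log2 units (standard error 0.10, adjusted p = 0.777 from limma), with a 95% interval from -0.15 to 0.31. Within passages it was 0.24, -0.06 and 0.06 log2 units. In the pig gene models of RefSeq (assembly Sscrofa11.1) the gene overlaps SLC16A11, another transporter of the family, and whether the probe set also reads SLC16A11 was not tested.

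Of the 3 probe sets of BSG, SLC16A13 and SLC16A3, limma thus called 0, at an unadjusted p under 0.05 as well, and the methods' t-test at its unadjusted threshold also called 0. Over all probe sets limma called 1.9% after adjustment and 14.3% at the unadjusted p, and the methods' t-test called 12% at its unadjusted threshold. The difference between these genes and EMB was not tested.

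Neuroplastin (NPTN), the closest relative of embigin and basigin, had 3 probe sets. The brightest read 11.93, 11.92 and 11.94 in ALI and 11.81, 11.64 and 11.88 in SMC cells on the log2 scale. These groups were separate by 0.0372 log2 units only, as were the groups of 19.6% of all probe sets in either direction. The difference was 0.15 log2 units (standard error 0.10, adjusted p = 0.558 from limma), and the other probe sets gave 0.04 and 0.09 with groups that overlapped.

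The handling of lactate and pyruvate around the transporters was followed in 28 measured genes. None of them was called higher and 2 were called lower in ALI cells, where 1.02% and 1.51% of all named genes were called. Their median difference was -0.06 log2 units, against 0.01 over all named genes. For 25 of the 28 genes the 95% interval lay between -1 and 1 log2 units. Of these, LDHC, PDK4, CA3 and PPARGC1A had all 6 values below the 25% quantile, so that their intervals set no limit on a change of the transcript.

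LDHA, the lactate dehydrogenase subunit that favours the formation of lactate, had the largest difference of the 28 genes. Its log2 values were 10.78, 11.42 and 10.88 in ALI and 13.49, 12.89 and 13.42 in SMC cells. The groups were far apart, at means of 11.03 ± 0.343 (SD, n = 3) and 13.26 ± 0.325 (SD, n = 3). In ALI cells LDHA fell by 2.24 log2 units (standard error 0.21, limma, adjusted p = 0.0035). The difference was -2.71 and -2.54 log2 units at passages P109 and P113, and -1.47 at passage P111. LDHB, the subunit typical of lactate-consuming tissues, had a difference of 0.07 log2 units (standard error 0.16, adjusted p = 0.889). LDHC and LDHD gave 0.05 and 0.07 log2 units, LDHC with all 6 values below the 25% quantile. Of 4 measured lactate dehydrogenase genes, 1 was lower and none was higher.

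The mitochondrial pyruvate carrier consists of MPC1 and MPC2. MPC1 read 10.52, 10.46 and 10.75 in ALI and 9.92, 10.12 and 10.09 in SMC cells on the log2 scale, with every ALI value above every SMC value. Its difference of 0.53 log2 units (standard error 0.12) did not pass limma's test at an adjusted p of 0.0727, but passed with the passage as a block (adjusted p = 0.0352), where 2.25% of all named genes were called higher. MPC2 had a difference of -0.27 log2 units (standard error 0.14, adjusted p = 0.435), and its groups overlapped.

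Pyruvate carboxylase (PC), which turns pyruvate into oxaloacetate, was the second called gene. It read 7.78, 7.40 and 7.84 in ALI and 8.35, 8.46 and 8.34 in SMC cells on the log2 scale, and the groups were separate. PC fell by 0.71 log2 units (standard error 0.13, adjusted p = 0.0405 from limma). This call ended without any 1 array other than ALI replicate 3, with adjusted p between 0.0719 and 0.187. Of the 8 measured genes of pyruvate dehydrogenase, its kinases and phosphatases and PC, this was the only call. The subunits PDHA1, PDHB, DLAT and DLD had differences of -0.11, -0.16, -0.09 and 0.19 log2 units.

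Monocarboxylate transport is coupled to protons, and 8 genes of proton and bicarbonate handling were measured. None was called in either direction, and their differences ranged from -0.19 to 0.29 log2 units. The ends of this range were CA12, a carbonic anhydrase of the cell surface, at -0.19 (standard error 0.14, adjusted p = 0.617 from limma) and SLC9A3, the apical sodium–proton exchanger, at 0.29 (standard error 0.14, adjusted p = 0.409). The value of SLC9A3 is that of its brighter probe set, and its other probe set gave -0.09 log2 units. CA9, a carbonic anhydrase induced under hypoxia, had -0.16 log2 units on its brightest probe set.

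Among 5 measured genes that regulate transporter genes, none was called. MYC varied widely within SMC cells, with log2 values of 10.67, 9.14 and 8.25 against 8.89, 9.38 and 8.80 in ALI cells. Its difference was -0.33 log2 units (standard error 0.52, adjusted p = 0.826 from limma), with an interval from -1.51 to 0.86 log2 units. EPAS1, the HIF-2α subunit, had -0.28 log2 units (standard error 0.17, adjusted p = 0.519). HIF1A had -0.15 on its brightest probe set, and another of its 4 probe sets, with 1 value below the 25% quantile, gave -1.39 (adjusted p = 0.0407).

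**Figure D3:**
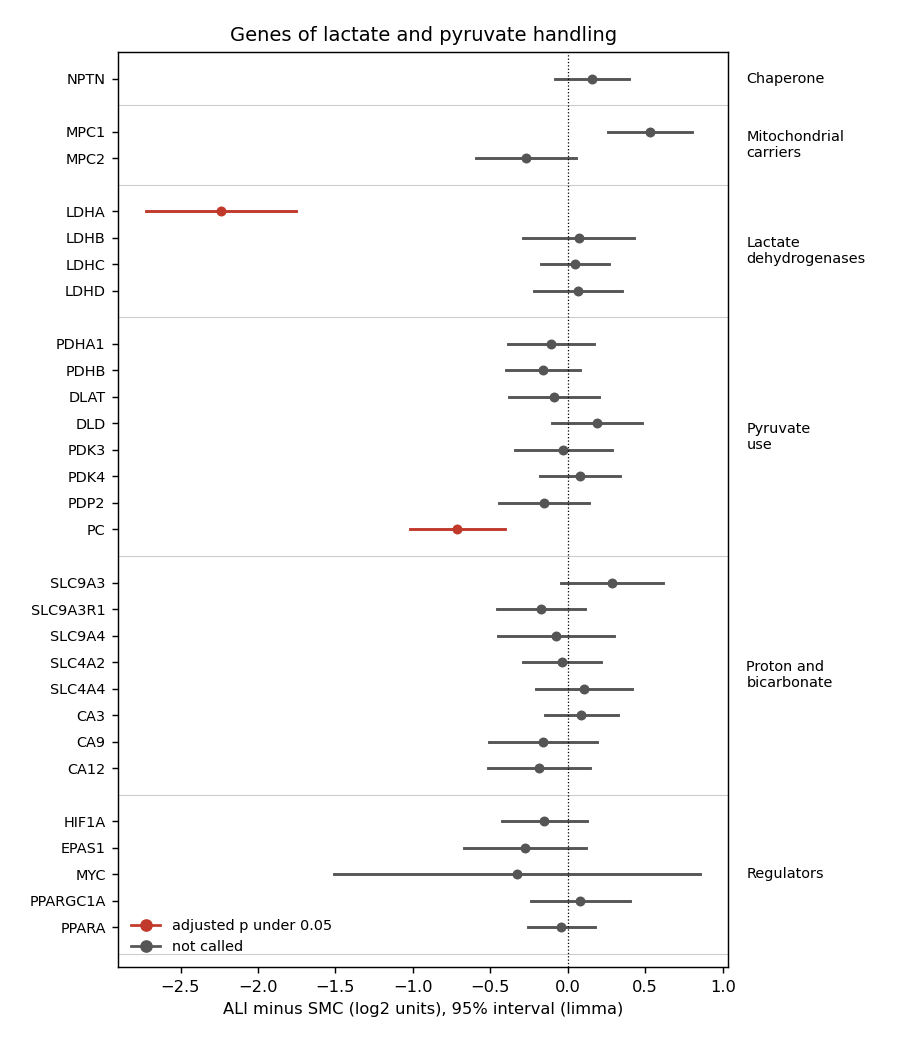
Difference ALI minus SMC in log2 units for the 28 measured genes around monocarboxylate transport, grouped by role, 1 probe set per gene. Points are the estimates and lines limma's 95% intervals, which are not adjusted for the number of genes. LDHA at -2.24 and PC at -0.71, in red, are the called genes, and MYC has the widest interval.

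Over the 6 arrays, the profile of EMB, centred on its mean, was closest to those of FIBIN, NPPC, FAM213A, FMO1 and FAM84A among 6764 other named genes. The root mean square distances were 0.231, 0.247, 0.273, 0.29 and 0.331 log2 units, where the median gene had 1.12. All 5 genes were higher in ALI cells on each array, with differences of 2.25, 1.72, 2.13, 1.80 and 2.13 log2 units. NPPC encodes the precursor of C-type natriuretic peptide and FMO1 a flavin-containing monooxygenase. Unlike EMB, none of these genes had an SMC value below the 25% quantile. These genes resemble EMB chiefly in the contrast by which it was chosen.

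**Figure D4:**
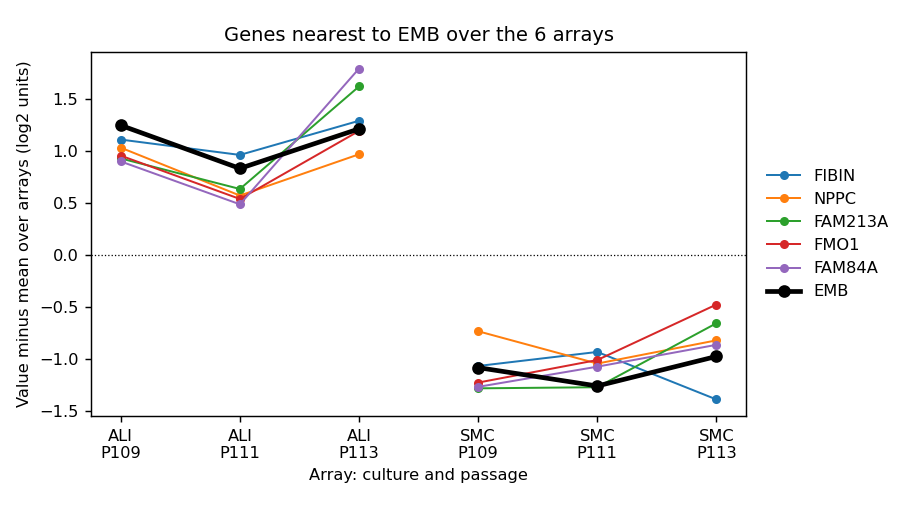
Log2 values minus each gene's mean over the 6 arrays for EMB (black) and the 5 named genes with the smallest distance to it, by culture and passage. All 6 profiles are above 0 in ALI and below 0 in SMC cells.

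The deviations of EMB from its group means leave that contrast out. By these, the genes with the highest Pearson r over the 6 arrays were ZNF706, NCK1, STX10, AMH and HAND1, at 0.994, 0.994, 0.992, 0.988 and 0.987 among 5446 genes. With 3 arrays per group such values were common, as 108 genes (1.98%) had an r of at least 0.9. The differences of these 5 genes between the cultures were between -0.17 and 0.17 log2 units. AMH had a mean log2 value of only 4.39 in ALI cells. Its 3 SMC values, like those of EMB, lay below the 25% quantile of their arrays.

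On the pig genome of RefSeq, MRPS30 and PARP8 were the measured genes among the 3 nearest protein-coding genes on each side of EMB. Their differences were -0.09 log2 units (standard error 0.16, adjusted p = 0.855 from limma) and 0.11 (standard error 0.18, adjusted p = 0.833).

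Blood cells and endothelium can also carry embigin or basigin, and the markers of other cell types were therefore read on the same arrays. Of 11 measured immune markers none was called, and their median difference was 0.09 log2 units. Of the 11, 4 lay below the 25% quantile on all 6 arrays, the leukocyte antigen PTPRC among them. CD163, CD4, ITGAM and SPI1 lay below it on 5 arrays and CD2 on 4. Only CD14 and CD3E lay above it on every array. The log2 summed signal of the 11 markers was 7.92 to 7.98 in ALI and 7.87 to 7.95 in SMC cells. Of 9 markers of fibroblasts and smooth muscle none was called, with a log2 summed signal of 10.16 to 11.34 in ALI and 10.68 to 10.96 in SMC cells. This sum mostly reads TAGLN, the brightest marker, at mean log2 values of 10.12 in ALI and 10.17 in SMC cells. DCN and LUM lay below the 25% quantile on all 6 arrays, and the other markers lay above it on each array. Of 6 endothelial markers PECAM1 was lower on the brighter of its 2 probe sets (difference -0.50, adjusted p = 0.0448 from limma). The log2 summed signal of the 6 markers was 7.93 to 8.17 in ALI and 8.25 to 8.39 in SMC cells. KDR and CDH5 lay below the 25% quantile on all 6 arrays, TEK on 5 and TIE1 on 3. Whether the lower PECAM1 has a part in the values of EMB was not tested. The 10 epithelial markers had a log2 summed signal of 15.59 to 15.64 in ALI and 15.54 to 15.72 in SMC cells, with none called. Among them, CDH17, an intestinal cadherin, lay below the 25% quantile on all 6 arrays.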

How the data were processed

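RNA of IPEC-1 cells was hybridized to 6 arrays, 3 of ALI and 3 of SMC cultures. According to the methods, the authors used Affymetrix GCOS (version 1.1.1 per the labels, while the methods name another version), arrayQualityMetrics and GC-RMA normalization with gcrma. The authors deposited log2 values of 24123 probe sets, 1 column per array, in a table that names no normalization. These values were not scaled again. After removal of 124 Affymetrix controls, limma (version 3.58.1, R version 4.3.3; lmFit, eBayes) was run on 23999 probe sets with culture type as the only factor. A call is an adjusted p under 0.05. The fit was tested on simulated data. Symbols came from the platform annotation, which gave 1 symbol to 10069 probe sets, and in lists each gene was read from its brightest probe set by mean value. Members and lists were chosen with earlier results of these data known. One gene list that was set up with the others is not reported here. Named are all member probe sets, up to 6 called genes per list or otherwise the 2 farthest from 0, and the 5 genes most like EMB by each measure.

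Per the labels, each passage was used for 1 ALI and 1 SMC array. Deviations from the group means correlated within passages at 0.34, 0.14 and 0.451. Between different passages the values ran from -0.424 to 0.219, the highest of them above the 0.14 of passage P111. The arrays were read as pairs by passage, but the main fit left this pairing out of its standard errors and p-values. The passage was a block in an alternative fit, given where it changed a call. Other alternatives were quantile normalization, median centring, filters on dim probe sets (mean log2 above 4 or 6), an intensity trend, the methods' t-test, averaging a gene's probe sets and leaving out each array. Arrays have no depth, and their number limits the precision.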

Additional observations from a re-analysis of the deposited data

How the results depend on the processing

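The EMB difference stayed between 2.13 and 2.34 log2 units without any 1 array, at 2.17 after quantile normalization and at 2.21 with median-centred arrays. The passage as a block cannot change its value of 2.20, as each passage has 1 array per culture. With the mean over both EMB probe sets the difference was 1.36. A filter at a mean log2 value above 6 left out EMB, and SLC16A3 was left out at 4 and 6. No probe set of BSG, SLC16A13 or SLC16A3 was called under any alternative. SLC16A3 ranged from -0.0599 to 0.0754 without 1 array, turning to 0.0754 without ALI replicate 3 and to 0.0133 without SMC replicate 2, and MYC turned to 0.33 without SMC replicate 1 (range from -0.88 to 0.33). The cause was not tested.

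Of all probe sets, 455 were called, 1276 with the passage as a block, 0 by the methods' t-test after adjustment and 2891 at its unadjusted p of 0.05. Without 1 array, 119 to 432 were called, with 119 without ALI replicate 1, 128 without SMC replicate 2, 246 without SMC replicate 1 and 280 without ALI replicate 2. Of the 28 genes around transport, 2 were called, 1 to 2 without 1 array and 3 with the probe sets of a gene averaged. The count was 0 by the adjusted t-test and 3 at its unadjusted p. The passage as a block changed only the call of MPC1 among the named genes, and MPC1 also passed after quantile normalization (adjusted p = 0.0464) but not without any 1 array (0.0993 to 0.198). LDHA passed without each of the 6 arrays. The number of arrays and signals near background limit these results.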
